A study of Mus musculus with 48 samples.

Results

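The effect of subtotal nephrectomy on kidney gene expression was followed in C57BL/6 (B6) mice from day 2 to day 28 after surgery, as the difference between nephrectomized (Nx) and sham kidneys at day 28 minus the same difference at day 2. The arrays were chosen by the strain, surgery and day of their labels, which gave 16 of the 48 arrays of the study, and all 13174 measured genes were tested. The 16 arrays make 4 groups of 4 B6 mice: Nx at day 2, sham operated at day 2, Nx at day 28 and sham operated at day 28. All mice were 9 weeks old at surgery, each array holds whole-kidney RNA of 1 mouse, numbered in its label, and no group carries an engineered allele or a drug in the labels. The other 32 arrays hold B6 kidneys at day 53 and FVB kidneys at all days. FVB is the strain that the study calls predisposed to kidney lesions after this surgery, and B6 is the strain that it calls not predisposed. How much kidney was removed and which sex the mice were are not given in the sources used here. Each group is a separate set of animals, so the comparison is between mice and does not follow any mouse over time.

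After loss of kidney mass, tubular cells of the remnant re-enter the cell cycle and grow, and the transporters and enzymes of the proximal tubule are often reduced while injured cells express keratins, lipocalin and kidney injury molecule. Monocytes enter the tissue, and fibroblasts lay down collagen and its crosslinking proteins, the matrix of a scar. Whole-kidney arrays average over all of these cells, so fewer cells of a type and less RNA per cell cannot be told apart.

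Expression values are on the log2 scale throughout, an effect of surgery is the Nx mean minus the sham mean of 1 day, and the change is the effect at day 28 minus the effect at day 2. Adjusted p-values come from limma, over all genes tested, with a threshold of 0.05, and values of single arrays are given in rising order of mouse number (3, 5, 9 and 11 for Nx day 2; 1, 2, 4 and 5 for sham day 2; 3, 4, 5 and 9 for Nx day 28; 1, 3, 5 and 6 for sham day 28). Nx day 28 mouse 3 stood apart from its group: its summed macrophage level (mean of 28 marker genes) was 9.94 against at most 8.02 in the other 3, and it was the only array of its group without pancreas transcripts. Pancreatic enzyme genes, which kidney cells do not use, had a mean above 5 on 3 of 4 Nx arrays at each day, on 0 of 4 sham arrays at day 2 and on 1 of 4 at day 28. Their part in the results was not tested beyond a fit without these arrays of the 4 groups. That fit keeps 1 Nx array per day, mouse 3 at each, so at day 28 it rests on the mouse that stood apart. The kidney markers were present on every array: the mean of the 28 proximal tubule transport genes lay between 10.35 and 11.93. The 3 prime minus 5 prime difference of Gapdh, a measure of RNA integrity, ran from 0.235 to 0.417 in Nx and 0.0822 to 0.191 in sham kidneys at day 2, and from 0.147 to 0.290 and 0.0907 to 0.241 at day 28.

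From day 2 to day 28 the effect of surgery moved for 1167 genes (8.86% of those tested), of which 638 rose (4.84%) and 529 fell (4.02%). With every array set to 1 median, 772 rose and 418 fell (64.9% against 54.7% rising). Without Nx day 28 mouse 3 the change passed for 1663 genes (786 rose, 877 fell), 1107 of them among the 1167. An unadjusted p under 0.05 in limma was met by the change of 2822 genes with all arrays. For 78 of the 1167 the effect was larger in size at day 28 than at day 2, and for the others it was smaller. At day 2 the Nx and sham kidneys differed in 5874 genes (44.6%), 2655 higher and 3219 lower. At day 28 they differed in 2501 (19%), 1297 higher and 1204 lower, or in 1537 without Nx day 28 mouse 3 (809 higher, 728 lower). Under the common median these splits were 2000 higher and 5018 lower at day 2, and 1114 higher and 2142 lower at day 28, with the median of all genes at day 2 shifted by -0.12. The 2 days share no array. Of the 2655 genes that were higher at day 2, 1060 were higher at day 28 as well, which is 39.9% of the day 2 list and 81.7% of the day 28 list, and 7 were lower. Of the 3219 lower genes, 939 were lower again (29.2% and 78.0%), and 13 were higher. The genes higher at day 2 had a median effect of 0.71 at day 2 and 0.32 at day 28, and the lower genes -0.49 and -0.21. The change shares its arrays with both effects and with the Nx and sham arms, so these are given side by side and are no separate evidence. Between the days, 3606 genes differed among Nx kidneys (27.4%; 1949 higher and 1657 lower at day 28, or 2406 and 1258 with a common median) and 29 among sham kidneys (0.22%; 12 higher or 0.0911%, 17 lower or 0.129%). A movement of the sham kidneys that missed the threshold still enters the change of single genes, so both arms are given where they matter.

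**Figure D1:**
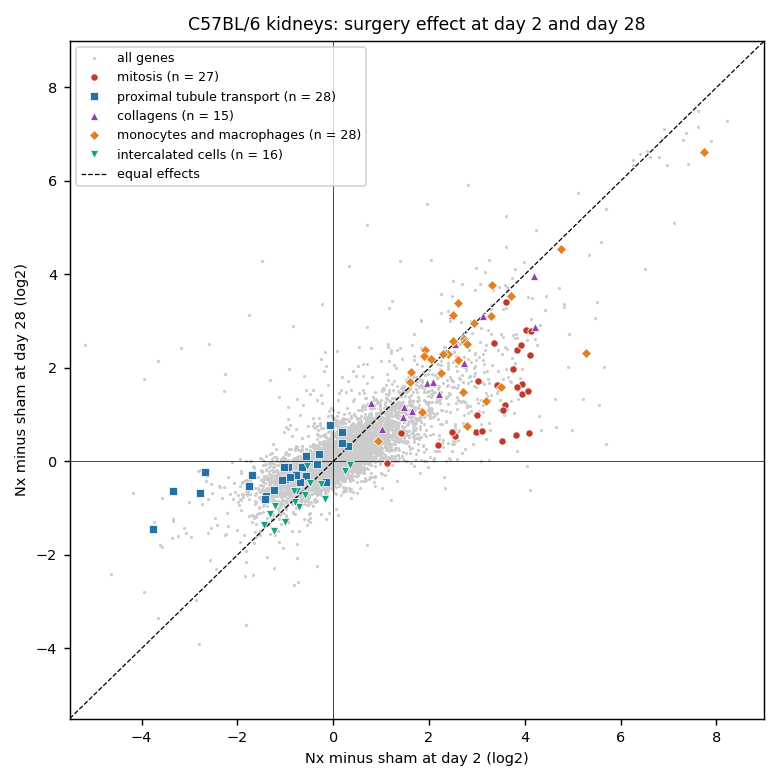
Effect of surgery at day 2 (horizontal axis, log2) against day 28 (vertical axis, log2) for all 13174 genes, with 5 gene lists marked and the line of equal effects dashed. The mitosis genes lie to the right and under the line, most proximal tubule genes to the left and above it, and the collagen and macrophage genes closer to it.

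Cell division genes showed the broadest return. After Nx all 27 measured mitosis genes were above sham at day 2 (background 20.2% of all genes higher), with a median effect of 3.59, and 21 were higher at day 28 (background 9.85%), with a median of 1.44. The effect fell in 19 of 27 (background 4.02%), rose in 0 (0 also at an unadjusted p under 0.05 in limma), and did not pass in 8, with a median change of -1.86 against 0.01 over all genes. The list mean lay at 7.34, 7.49, 7.31 and 7.43 in Nx kidneys at day 2 and at 5.71, 4.53, 4.97 and 3.98 at day 28, against 3.87 to 4.32 and 3.17 to 3.57 in sham kidneys. The 4 Nx arrays of day 2 lay above all others, and those of day 28 lay above the sham arrays of their day. Among Nx kidneys alone 27 of 27 fell between the days (background 12.6%), and among sham kidneys 2 of 27 did (background 0.129%), with medians of -2.67 and -0.61. Without Nx day 28 mouse 3 the effect fell in 23 of 27, against 877 of all 13174 genes. It fell in fewer without the arrays with pancreas transcripts, a fit that keeps that mouse as its only Nx array of day 28.

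The promoters of the 3 mitosis genes with the smallest p in the change, of Cdkn3, and of the transporter gene Slc34a1 for contrast are shown because CCAAT boxes, the sites of the factor NF-Y, are a known feature of cell cycle promoters. Each is the 100 bases before the start site in RefSeq (GRCm38.p6), written 5′ to 3′ on the gene's strand, with CCAAT or its reverse complement ATTGG in capitals.
Aurka: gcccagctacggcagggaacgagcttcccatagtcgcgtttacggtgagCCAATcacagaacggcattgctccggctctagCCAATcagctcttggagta
Plk1: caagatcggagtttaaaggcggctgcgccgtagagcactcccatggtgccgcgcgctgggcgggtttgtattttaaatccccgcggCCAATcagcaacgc
Ttk: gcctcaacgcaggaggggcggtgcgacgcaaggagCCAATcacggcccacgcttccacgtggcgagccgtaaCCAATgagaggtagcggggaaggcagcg
Cdkn3: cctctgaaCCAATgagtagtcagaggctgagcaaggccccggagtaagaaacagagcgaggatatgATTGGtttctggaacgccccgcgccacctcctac
Slc34a1: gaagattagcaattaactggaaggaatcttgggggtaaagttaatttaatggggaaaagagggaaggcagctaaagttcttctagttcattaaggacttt
These windows are chr2:172370571-172370670, minus strand (Aurka), chr7:122159335-122159434, plus strand (Plk1), chr9:83834589-83834688, plus strand (Ttk), chr14:46760441-46760540, plus strand (Cdkn3) and chr13:55399548-55399647, plus strand (Slc34a1), each upstream of the transcript. Within these windows Aurka, Ttk and Cdkn3 hold 2 CCAAT boxes each, Plk1 holds 1 and Slc34a1 holds 0. Over the 250 bases before the start, searched on both strands, CCAAT was found in 19 of the 23 mitosis genes with a promoter in the table (82.6%), in 13 of 19 DNA replication genes (68.4%), in 8 of 25 proximal tubule transport genes (32%) and in 37.5% of all 27025 genes. The letters TTTGAA, the core of the cell cycle genes homology region, were found in 9 of 23 mitosis genes (39.1%), 1 of 19 DNA replication genes (5.26%), 8 of 25 transport genes (32%) and 18.3% of all genes. A TTTGAA match can share at most 1 base with a CCAAT match. A match is a description of the letters and not a test of binding.

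Aurka, the kinase of centrosome maturation whose promoter is shown above with 2 CCAAT boxes, lay at 6.51, 6.12, 6.30 and 6.31 in Nx and 2.21 to 2.23 in sham kidneys at day 2, and at 3.73, 2.23, 3.04 and 2.23 in Nx and 2.20 to 2.23 in sham kidneys at day 28. The 4 Nx values of day 2 stood clear of all the others, while 2 of 4 Nx values of day 28 were at the sham level. The level was at least 16.4-fold higher in Nx kidneys at day 2, taken against the filter value of 2.28 because all sham arrays were at or under it, and the change was -3.49 (SE 0.30, adjusted p = 9.71e-11). Plk1, a kinase of mitotic entry, went from 5.72, 5.98, 5.69 and 5.53 in Nx kidneys at day 2 to 3.38, 2.21, 2.75 and 2.21 at day 28, with all 8 sham values at 2.20 to 2.21. The Nx arrays of the 2 days did not overlap, and its change was -3.09 (SE 0.27, adjusted p = 1.46e-10). Ttk, the spindle checkpoint kinase, changed by -1.84 (SE 0.21, adjusted p = 1.51e-07). Cdkn3, a phosphatase of cyclin-dependent kinases, lay at 6.62, 7.13, 7.72 and 6.90 in Nx kidneys at day 2 and at 4.56, 2.47, 2.70 and 2.31 at day 28, with a change of -3.91 (SE 0.46, adjusted p = 1.68e-07). It belongs to no list and was named for its size. Sham values of Aurka, Plk1 and Ttk sit near the lowest value of the table, so their fitted changes are not exact sizes.

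Some mitosis genes kept a large effect. Mki67, the Ki-67 proliferation antigen, lay at 8.42, 7.46, 7.90 and 6.43 in Nx kidneys at day 28 against 4.22, 4.78, 3.25 and 4.30 in sham kidneys, and the groups did not overlap. Its effect was 3.60 (SE 0.42) at day 2 and 3.41 (SE 0.42, adjusted p = 2.34e-07) at day 28, and its change of -0.19 did not pass (adjusted p = 0.932). Both arms moved: Mki67 fell by 2.25 among Nx kidneys (adjusted p = 8.18e-05) and by 2.07 among sham kidneys (adjusted p = 0.0161). Birc5, the survivin of the chromosomal passenger complex, kept an effect of 2.82 (SE 0.41, adjusted p = 3.44e-06) at day 28. Without Nx day 28 mouse 3 the day 28 effect of Mki67 was 3.13. In that fit 14 rather than 21 of the 27 mitosis genes were higher at that day, against 809 of all 13174 genes.

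DNA replication genes moved the same way. Of 23 measured, 22 were higher at day 2 (background 20.2%) and 7 at day 28 (background 9.85%). The effect fell in 13 (background 4.02%) and rose in 0 (19 and 0 at an unadjusted p under 0.05), and the median went from 1.33 to 0.43. Tk1, the thymidine kinase of the S phase, lay at 9.03, 8.54, 8.72 and 8.29 in Nx kidneys at day 2 and at 5.35, 4.79, 4.71 and 4.48 at day 28. Sham kidneys lay at 3.85, 4.39, 4.41 and 4.71 and 3.85, 4.15, 4.33 and 3.14, so the Nx values of day 28 were all above the sham values of that day. The Tk1 effect fell from 4.30 to 0.97, a change of -3.34 (SE 0.55, adjusted p = 6.43e-05). Pole, the catalytic subunit of DNA polymerase epsilon, changed by -1.96 (SE 0.24, adjusted p = 2.73e-07), and Gins2, part of the replicative helicase, by -1.92 (SE 0.25, adjusted p = 1.5e-06). Rrm2, a subunit of ribonucleotide reductase, changed by -1.98 and was still higher at day 28 (1.72, SE 0.26, adjusted p = 8.81e-06). Among the inhibitors of the cycle and p53 targets, the effect fell in 2 of 18 (background 4.02%) and did not pass in 16. Gadd45a, which answers DNA damage, changed by -1.22 (SE 0.23, adjusted p = 0.00035), and Cdkn1a, the inhibitor p21, by -1.13 (SE 0.30, adjusted p = 0.0126). Cdkn1a lay at 7.40, 6.50, 6.09 and 6.51 in Nx kidneys at day 28 against 5.40 to 5.68 in sham kidneys, without overlap.

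**Figure D2:**
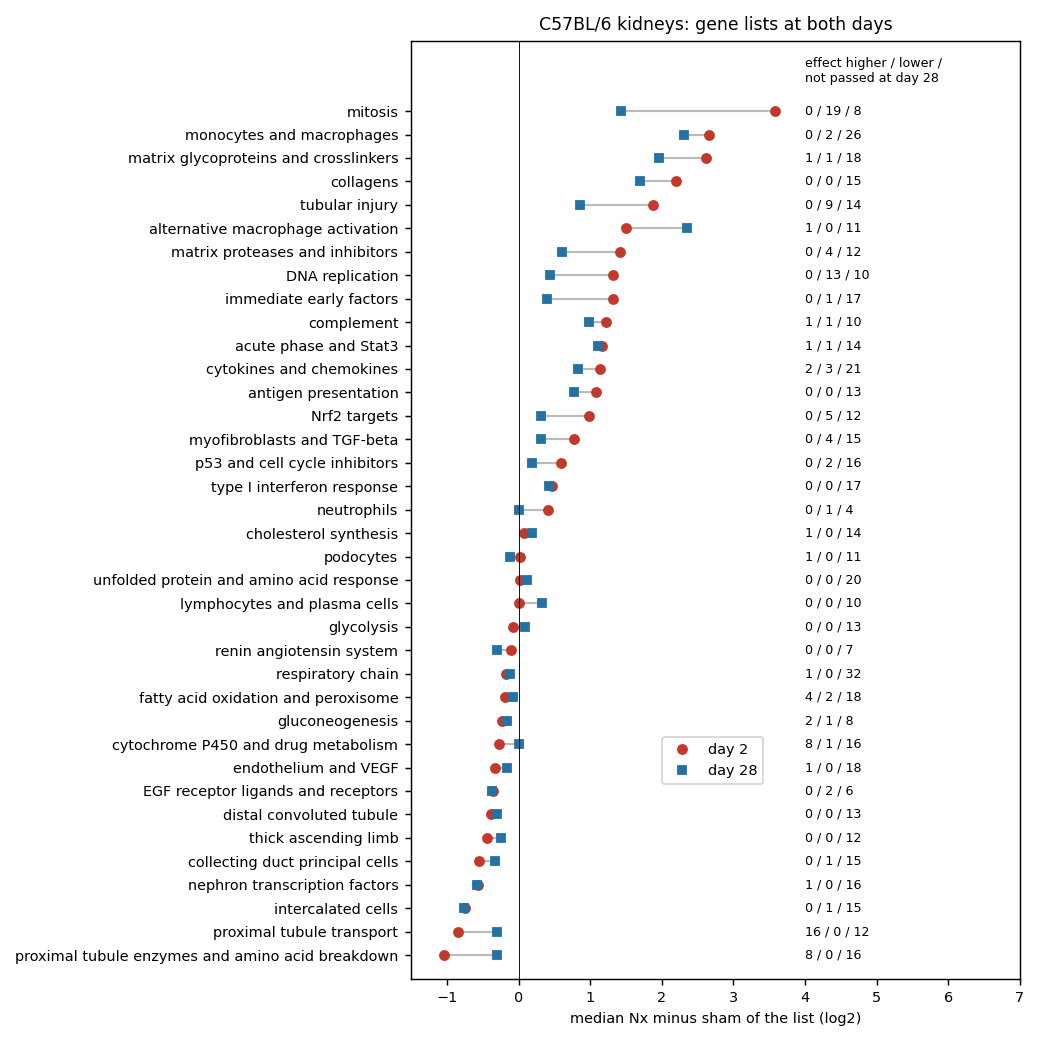
Median effect of surgery of each gene list (log2) at day 2 (circles) and day 28 (squares), with the number of members whose effect rose, fell or did not pass from day 2 to day 28 at the right. The mitosis median falls from 3.59 to 1.44, the collagen median from 2.20 to 1.69, and the proximal tubule medians rise towards 0.

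Markers of injured tubules fell in part. Of 23 measured, 20 were higher at day 2 (background 20.2%) and 17 at day 28 (background 9.85%). The effect fell in 9 (background 4.02%) and rose in 0 (9 and 0 at an unadjusted p under 0.05), and the median went from 1.87 to 0.86. Krt20, a keratin of injured tubular cells, lay at 8.81, 7.44, 7.80 and 8.18 in Nx kidneys at day 2 and at 3.45, 4.07, 3.66 and 3.71 at day 28, against 3.05 to 3.09 and 3.03 to 3.05 in sham kidneys. All 4 groups were in the same order in every array: Nx day 2 highest, then Nx day 28, then sham. The change was -4.29 (SE 0.30, adjusted p = 2.98e-13). Mmp7, a metalloprotease that injured tubular cells secrete, lay at 7.74, 7.81, 7.33 and 8.11 and then at 4.80, 3.87, 2.47 and 2.49, with all sham arrays at 2.20 to 2.21. It was at least 44.3-fold higher in Nx kidneys at day 2 and at least 2.19-fold higher at day 28, and its change was -4.34 (SE 0.53, adjusted p = 4.21e-07). The bound at day 28 without Nx day 28 mouse 3 was 1.58-fold, and the day 28 effect of 0.74 did not pass (adjusted p = 0.196). Sprr2f, a small proline-rich protein of stressed epithelium that is on no list, changed by -3.87 (SE 0.59, adjusted p = 2e-05). Krt8, a keratin of simple epithelium, changed by -0.91 (SE 0.18, adjusted p = 0.00059), and Hbegf, a ligand of the EGF receptor, by -0.95 (SE 0.24, adjusted p = 0.00812). Hbegf overlapped the sham range at day 28, at 7.13 to 7.34 in Nx and 6.82 to 7.28 in sham kidneys.

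Lcn2 and Havcr1, widely used injury markers of the kidney, were still far above sham at day 28. Lcn2, a lipocalin that binds bacterial siderophores, lay at 12.59, 12.01, 11.71 and 13.04 in Nx kidneys at day 2, 10.21, 9.07, 9.13 and 7.75 at day 28, and 4.17 to 5.79 in sham kidneys at day 28. Its effect fell by 2.37 (SE 0.62, adjusted p = 0.0108) and was still 4.13 (SE 0.44) at day 28. Havcr1, kidney injury molecule 1, lay at 7.72, 6.93, 7.51 and 7.59 in Nx kidneys at day 28 against 2.66, 3.96, 2.65 and 5.37 in sham kidneys, without overlap. Its effect was 3.59 at day 2 and 3.78 at day 28, and its change of 0.19 did not pass (adjusted p = 0.954); the Nx level fell by 1.89 (adjusted p = 0.00902) while the sham level differed by -2.08 (adjusted p = 0.105). The probe sets of Havcr1 gave changes from -2.33 to 0.19, so its change depends on the probe set. Of the 60 named genes with more than 1 kept probe set, 9 had a probe set whose change had the other sign.

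Among Nrf2 targets, the genes of the antioxidant response, the effect fell in 5 of 17 (background 4.02%) and rose in 0 (5 and 1 at an unadjusted p under 0.05). Their median effect was 0.98 at day 2 and 0.31 at day 28. Nqo1, a quinone reductase, lay at 10.84, 10.78, 10.96 and 10.95 in Nx and 8.08, 8.26, 8.25 and 8.07 in sham kidneys at day 2, and at 9.53, 9.90, 9.17 and 9.90 in Nx and 9.10, 8.28, 9.06 and 8.72 in sham kidneys at day 28. The Nx arrays of day 28 stayed above the sham arrays of their day, and the change was -1.89 (SE 0.30, adjusted p = 3.15e-05). Cbr3, a carbonyl reductase, changed by -2.88 (SE 0.55, adjusted p = 0.000396) from an effect of 4.90, and Txnrd1, a thioredoxin reductase, by -0.86 (SE 0.13, adjusted p = 1.71e-05) from 1.12. Of the immediate early factors 16 of 18 were higher at day 2 (background 20.2%) and 6 at day 28 (background 9.85%). The effect fell in 10 at an unadjusted p under 0.05, and past the threshold in 1, Ier3, near the background of 4.02%. This count was 7 without Nx day 28 mouse 3, where 877 of all 13174 genes fell. It was 0 without any 1 of 5 arrays (Nx day 2 mouse 11, Nx day 28 mouse 4 or 5, sham day 2 mouse 2, sham day 28 mouse 1).

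Cxcl5, a chemokine that draws neutrophils, had one of the largest falls. It lay at 7.81, 7.57, 7.91 and 8.28 in Nx kidneys at day 2, where it was at least 49-fold above sham, and at 3.64, 2.20, 2.20 and 2.20 at day 28, with every sham array at the lowest value of 2.20. Only Nx day 28 mouse 3 was above that value at day 28, and the change was -5.33 (SE 0.42, adjusted p = 8.85e-12). Cxcl2, another such chemokine, changed by -2.52 (SE 0.69, adjusted p = 0.0146) and Il1b, interleukin 1 beta, by -2.06 (SE 0.57, adjusted p = 0.0164); the first missed the threshold without Nx day 28 mouse 5 and the second without sham day 28 mouse 1. S100a9, a calcium-binding protein of neutrophils, lay at 7.67, 8.92, 7.18 and 8.32 in Nx kidneys at day 2 and at 2.21 to 2.51 at day 28, but sham arrays ranged from 2.55 to 5.22 at day 2 and its change of -4.72 (SE 1.40, adjusted p = 0.0264) missed the threshold without any 1 of 5 arrays (Nx day 2 mouse 5 or 11, sham day 2 mouse 1 or 4, sham day 28 mouse 1). Of 26 cytokines and chemokines, 18 were higher at day 2 (background 20.2%) and 12 at day 28 (background 9.85%). The effect fell in 3 (Cxcl5, Cxcl2 and Il1b), against a background of 4.02%. It rose in 2 (background 4.84%), the chemokines Ccl8 and Ccl5, neither of which passed without Nx day 28 mouse 3.

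**Figure D3:**
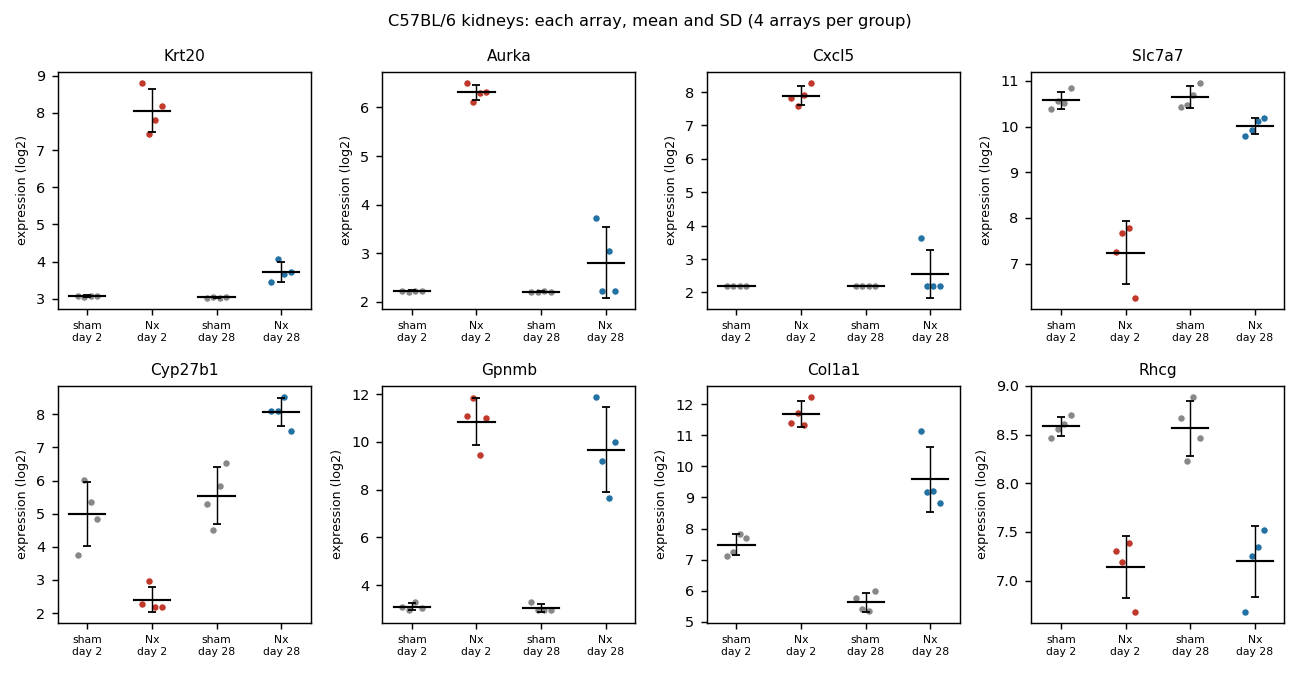
Expression (log2) of 8 genes on each of the 16 arrays, with the group mean and SD (4 arrays per group). Krt20, Aurka and Cxcl5 fall to or near the sham level by day 28, Slc7a7 rises towards it, Cyp27b1 crosses from under to above sham, and Gpnmb, Col1a1 and Rhcg stay apart from sham at both days.

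Proximal tubule transporters, which reclaim filtered phosphate, sugar and amino acids, rose relative to sham in 16 of 28. Of 28 measured, 23 were lower at day 2 (background 24.4%) and 10 at day 28 (background 9.14%), the effect rose in 16 (background 4.84%), fell in 0 (0 also at an unadjusted p under 0.05) and did not pass in 12. Of the 16, 15 moved towards the sham level, and Slc13a1, a sulfate transporter, went above it (0.79, SE 0.13, adjusted p = 3.89e-05). In all, 4 members were higher than sham at day 28 and 1 at day 2. The lower members at day 28 numbered 5 and the higher ones 4 without Nx day 28 mouse 3 (728 and 809 of all 13174 genes). The median effect went from -0.85 to -0.30. The list mean lay at 10.77, 10.86, 11.01 and 10.35 in Nx kidneys at day 2, at 11.28, 11.63, 11.75 and 11.74 at day 28, and at 11.71 to 11.92 and 11.79 to 11.93 in sham kidneys of the 2 days. Nx day 28 mouse 3 was the lowest of its group and still above every Nx array of day 2. Among Nx kidneys 23 of 28 rose (background 14.8%) and among sham kidneys 0 did (0 also at an unadjusted p under 0.05 in limma). The count of risen effects was 20 without Nx day 28 mouse 3 and 10 when the fit held only these 16 arrays. It was lower still without the arrays with pancreas transcripts, where that mouse is the only Nx array of day 28.

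Slc7a7, which exports cationic amino acids from the tubule, lay at 7.26, 7.67, 7.77 and 6.25 in Nx and 10.38, 10.56, 10.51 and 10.84 in sham kidneys at day 2. At day 28 it lay at 9.80, 9.92, 10.12 and 10.18 in Nx and 10.43, 10.48, 10.69 and 10.96 in sham kidneys. The Nx groups of the 2 days did not overlap, and every Nx array of day 28 was still under the sham arrays. The change was 2.70 (SE 0.34, adjusted p = 6.26e-07). Slc34a1, the sodium phosphate cotransporter whose 100 bases shown above hold no CCAAT box, went from 11.18, 11.22, 11.64 and 10.41 to 12.27, 12.53, 12.53 and 12.74 in Nx kidneys, with sham at 12.72 to 12.99 at day 28, a change of 1.41 (SE 0.23, adjusted p = 3.93e-05). Its relative Slc34a3 changed by 2.33 (SE 0.52, adjusted p = 0.00252) and was still lower at day 28 (-1.44, SE 0.37, adjusted p = 0.00451). Slc26a1, a sulfate exchanger, changed by 2.46 (SE 0.46, adjusted p = 0.000307), Slc7a9, the light chain of the cystine transporter, by 1.24 (SE 0.21, adjusted p = 0.000113), and Slc6a19, a neutral amino acid transporter, by 2.09 (SE 0.44, adjusted p = 0.00113). The endocytic receptors Lrp2 (megalin) and Cubn (cubilin) rose by 0.67 (SE 0.16) and 0.62 (SE 0.19), and were lower at day 28 by 0.39 and 0.39. Slc5a2, the glucose transporter that SGLT2 inhibitors block, changed by 0.63 (SE 0.25, adjusted p = 0.115) and passed without Nx day 28 mouse 3 (0.81, adjusted p = 0.0207).

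Metabolic enzymes of the proximal tubule moved in the same direction. Of 24 measured, 20 were lower at day 2 (background 24.4%) and 5 at day 28 (background 9.14%). The effect rose in 8 (background 4.84%) and fell in 0 (12 and 0 at an unadjusted p under 0.05), and the median went from -1.04 to -0.30. Without Nx day 28 mouse 3 the effect rose in 12 (786 of all 13174 genes) and 2 were lower at day 28 (728 of all genes). Dao, the D-amino acid oxidase, lay at 7.51, 7.78, 7.61 and 6.95 in Nx kidneys at day 2 and at 9.61, 9.98, 9.99 and 10.01 at day 28, against 9.90 to 10.19 and 10.08 to 10.40 in sham kidneys. All Nx arrays of day 28 were just under the sham range of their day, and the change was 2.34 (SE 0.25, adjusted p = 4.21e-08). Asl, which makes arginine, changed by 1.63 (SE 0.27, adjusted p = 5.15e-05), and Miox, which breaks down myo-inositol, by 1.28 (SE 0.19, adjusted p = 1.03e-05). Bhmt, which remethylates homocysteine, and Hpd, of tyrosine breakdown, were still low: Bhmt lay at 5.94, 7.84, 7.63 and 9.40 in Nx kidneys at day 28 against 10.37, 11.63, 11.00 and 9.71 in sham kidneys. The day 28 effects were -2.97 (SE 0.55, adjusted p = 0.000129) for Bhmt and -2.79 (SE 0.52, adjusted p = 0.000128) for Hpd, and both had Nx day 28 mouse 3 as the lowest array of its group. Their changes of -0.12 and 1.17 did not pass (adjusted p = 0.976 and 0.389). Without that mouse the changes were 0.47 and 1.86 (adjusted p = 0.787 and 0.057), so that of Bhmt turned sign, and the day 28 effects were -2.39 and -2.10. Of 25 cytochrome P450 and drug metabolism genes, the effect rose in 8 (background 4.84%) and fell in 1 (background 4.02%). Inmt, an indolethylamine methyltransferase, changed by 2.46 (SE 0.55, adjusted p = 0.00248), Cyp2d26 by 1.82 (SE 0.29, adjusted p = 4.17e-05) and the glycosyltransferase Ugt3a2 by 0.84 (SE 0.15, adjusted p = 0.000219).

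Cyp27b1, the enzyme that activates vitamin D in the proximal tubule, crossed from under to above the sham level. At day 2 it lay at 2.28, 2.96, 2.20 and 2.20 in Nx and 3.76, 6.02, 5.35 and 4.84 in sham kidneys, and at day 28 at 8.09, 8.10, 8.53 and 7.50 in Nx and 5.29, 4.50, 5.83 and 6.54 in sham kidneys. The Nx arrays were under all sham arrays at day 2 and above all at day 28. Its effect was -2.58 (SE 0.60, adjusted p = 0.000488) at day 2 and 2.52 (SE 0.60, adjusted p = 0.00215) at day 28, and the change was 5.10 (SE 0.84, adjusted p = 6.49e-05). The movement was among Nx kidneys (5.65, SE 0.60), with sham kidneys differing by 0.55 between the days (adjusted p = 0.974). Without Nx day 28 mouse 3 the change was 5.09, and at day 53 the effect was 3.47 (SE 0.60, adjusted p = 5.84e-05). Cyp24a1, which inactivates vitamin D, was higher at both days, with effects of 1.70 (SE 0.70, adjusted p = 0.0454) and 2.73 (SE 0.70, adjusted p = 0.00432). Tmem252, a transmembrane protein, crossed as well, from -0.62 (SE 0.19, adjusted p = 0.00657) to 1.83 (SE 0.19, adjusted p = 8.49e-09), with Nx values of 9.49, 9.57, 9.05 and 9.34 at day 2 and 11.44, 11.72, 11.35 and 11.65 at day 28. Of the other genes with the largest rises, Clec2h, Fam151a and Sectm1b changed by 3.51 (SE 0.60), 2.79 (SE 0.39) and 2.61 (SE 0.47), to day 28 effects of -0.68, -0.78 and -0.21, of which that of Fam151a passed (adjusted p = 0.0409), a call lost without Nx day 28 mouse 3 (-0.56, adjusted p = 0.218).

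Collagens were still high at day 28. All 15 measured were above sham after Nx on both days (background 20.2% and 9.85%), with medians of 2.20 and 1.69. The change passed in 0 of 15, against 8.86% of all genes in either direction. At an unadjusted p under 0.05 in limma 0 rose and 2 fell, against 2822 of all 13174 genes in either direction. The list mean lay at 10.92, 11.43, 10.63 and 11.32 in Nx kidneys at day 2 and 11.15, 9.71, 9.80 and 9.52 at day 28, and at 8.60 to 8.93 and 7.74 to 8.21 in sham kidneys. Nx day 28 mouse 3 was at the day 2 level and the other 3 mice between that and sham. Levels fell in both kinds of kidney. Among Nx kidneys 11 of 15 fell (background 12.6%), with a median of -0.97. Among sham kidneys 2 of 15 fell (background 0.129%), with a median of -0.57. At an unadjusted p under 0.05 in limma 10 of 15 fell among sham kidneys, against 1067 of all 13174 genes in either direction. Without mouse 3 the change passed in 2 of 15, both lower (877 of all 13174 genes), and 13 of 15 were higher at day 28 (809 of all genes). Col1a1, the main chain of type I collagen, lay at 11.12, 9.18, 9.20 and 8.82 in Nx kidneys at day 28 against 5.76, 5.40, 5.35 and 5.98 in sham kidneys. Its effect was 4.19 (SE 0.42) at day 2 and 3.96 (SE 0.42, adjusted p = 1.7e-08) at day 28, while its level fell by 2.10 among Nx and 1.86 among sham kidneys (adjusted p = 0.000197 and 0.0421). Col3a1, of type III collagen, had effects of 2.48 and 3.13, with sham kidneys lower by 1.68 at day 28 (adjusted p = 0.0101). Without mouse 3 their day 28 effects were 3.45 and 2.79.

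Matrix glycoproteins and crosslinkers were higher in 19 of 20 at day 2 (background 20.2%) and 18 of 20 at day 28 (background 9.85%). The effect fell in 1, Fbn2, and rose in 1, Cilp, a share near the background of 8.86%. Without Nx day 28 mouse 3 it fell in 7, against 877 of all 13174 genes. Without Nx day 2 mouse 9 it fell in 4, in a fit where 1476 genes passed in either direction. Fbn2, the fibrillin of growing tissue, lay at 7.61, 8.45, 7.38 and 8.86 in Nx kidneys at day 2 and 6.44, 4.40, 3.34 and 3.65 at day 28, with sham kidneys at 2.34 to 2.57 and 2.35 to 2.69. Nx arrays fell to between the earlier level and sham, with a change of -3.65 (SE 0.71, adjusted p = 0.000517). Col11a1, a minor fibrillar collagen that is on no list, was at 5.52, 7.43, 6.43 and 6.75 in Nx kidneys at day 2 and above the lowest value at day 28 in mouse 3 only (4.88), a change of -3.66 (SE 0.62, adjusted p = 9.26e-05). Ltbp2, which binds to fibrillin fibres, kept effects of 5.60 and 4.70 (SE 0.43, adjusted p = 7.79e-10). Among matrix proteases the effect fell in 4 of 16 (background 4.02%), and in 9 without mouse 3 (877 of all 13174 genes). Mmp9, a gelatinase, lay at 8.47, 9.76, 7.62 and 9.79 in Nx kidneys at day 2 and at 5.07 in 3 of 4 at day 28, the level of all sham arrays at day 2, with a change of -3.62 (SE 0.54, adjusted p = 1.54e-05). Plat, the tissue plasminogen activator, changed by -0.84 (SE 0.21, adjusted p = 0.0068) and was lower than sham at day 28 (-0.64). Timp1, the inhibitor of these proteases, lay at 9.64, 5.47, 5.52 and 5.98 in Nx kidneys at day 28, at least 20.7-fold above sham, or at least 10.4-fold without mouse 3. Its change of -0.92 did not pass with all arrays (adjusted p = 0.561) and was -1.92 without mouse 3 (adjusted p = 0.0205). Of 19 myofibroblast and TGF-beta genes the effect fell in 4 (background 4.02%), among them Ccn1, a matricellular protein (-2.09, SE 0.55, adjusted p = 0.0104). It fell in 2 without Nx day 2 mouse 11 or without sham day 2 mouse 5.

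**Figure D4:**
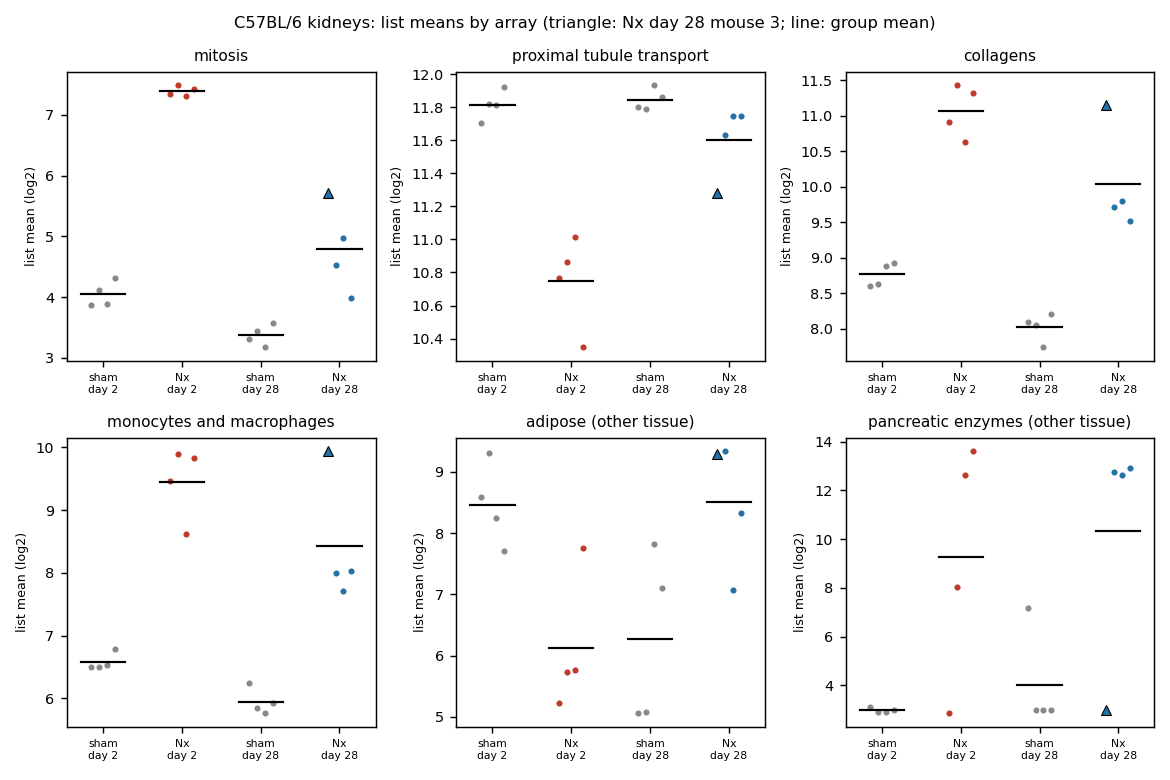
Mean expression (log2) of 6 gene lists on each of the 16 arrays, with a line at the group mean and a triangle for Nx day 28 mouse 3. That mouse is highest of its group for mitosis, collagens and macrophages, lowest for proximal tubule transport, and has no pancreas transcripts.

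Monocyte and macrophage genes were also still high. Of 28 measured, 27 were higher at day 2 (background 20.2%) and 24 at day 28 (background 9.85%), with medians of 2.66 and 2.31. The change passed in 2, both lower, a share near the background of 8.86%. At an unadjusted p under 0.05 in limma 5 were lower and 0 higher, against 2822 of all 13174 genes in either direction. The list mean lay at 9.47, 9.89, 8.62 and 9.83 in Nx kidneys at day 2 and at 9.94, 8.00, 7.72 and 8.02 at day 28, and sham arrays lay at 6.49 to 6.78 and 5.76 to 6.24. The 3 arrays other than mouse 3 lay between the day 2 Nx level and sham. Among Nx kidneys 13 of 28 fell (background 12.6%), or 25 without mouse 3 (2074 of all 13174 genes). Among sham kidneys 0 fell (background 0.129%). At an unadjusted p under 0.05 in limma 13 fell among sham kidneys, against 1067 of all 13174 genes in either direction. Clec4n and Fcgr1 were the 2 that passed. The change count was 6 without mouse 3 (1663 of all 13174 genes) or without Nx day 2 mouse 9 (1476 of all genes). It was 1 without any 1 of 4 arrays (Nx day 2 mouse 11, Nx day 28 mouse 4 or 9, sham day 28 mouse 1). Gpnmb, a glycoprotein of lipid-laden macrophages, lay at 11.09, 11.82, 9.46 and 10.99 and then at 11.89, 9.18, 7.65 and 9.99 in Nx kidneys, against 2.98 to 3.30 and 2.95 to 3.30 in sham kidneys. The groups of each day did not overlap, and its change of -1.12 did not pass (adjusted p = 0.452). Cd68, a lysosomal protein of macrophages, had effects of 4.75 and 4.55, and Mmp12, the macrophage elastase, of 7.40 and 6.35. Without mouse 3 the day 28 effects of Gpnmb, Cd68 and Mmp12 were 5.89, 3.89 and 5.51. Clec4n, the lectin receptor Dectin-2, is a member that fell: it lay at 7.53, 8.04, 6.82 and 7.95 and then at 6.89, 4.56, 3.27 and 3.37 in Nx kidneys, a change of -2.97 (SE 0.64, adjusted p = 0.00157).

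A smaller set had an effect of larger size at day 28 than at day 2: 78 of the 1167 genes, of which 49 rose. The count ignores the sign, so it includes genes that crossed the sham level, such as Tmem252. Cilp, a protein of the cartilage intermediate layer that is also made by fibroblasts, lay at 3.88, 5.89, 7.39 and 8.44 in Nx kidneys at day 2 and 9.78, 7.02, 7.32 and 8.03 at day 28, against 4.53, 3.31, 4.61 and 5.35 and 2.31, 2.31, 2.93 and 2.52 in sham kidneys. Nx and sham arrays overlapped at day 2 and not at day 28, and the change was 3.57 (SE 0.92, adjusted p = 0.00901), or 2.98 without mouse 3 (adjusted p = 0.0228). Ccl8, a chemokine for monocytes, lay at 11.76, 7.73, 6.72 and 8.72 in Nx kidneys at day 28 against 2.57, 2.67, 2.61 and 3.45 in sham kidneys and changed by 3.10 (SE 0.96, adjusted p = 0.0339). The level of Nx kidneys differed by 0.21 between the days (adjusted p = 0.897) and that of sham kidneys by -2.88 (adjusted p = 0.0526). Retnla, a product of alternatively activated macrophages, changed by 4.37 (SE 1.33, adjusted p = 0.0314) with values of 12.19, 6.42, 6.02 and 6.83 in Nx kidneys at day 28, of which mouse 3 stood far above the others. Among Nx kidneys no measured gene of alternative activation rose by more than 1.64 between the days, so the change of Retnla includes a lower sham level at day 28. Cpxm2, an inactive carboxypeptidase, changed by 2.28 (SE 0.71, adjusted p = 0.0347). These 3 calls were not stable: leaving out 1 array in turn ended that of Ccl8 in 10 of 16 cases, of Cpxm2 in 10 and of Retnla in 5, in each with Nx day 28 mouse 3 among them, where the changes were 2.09, 1.74 and 2.92. The day 28 effects themselves passed without mouse 3 (4.90, 3.78 and 3.62).

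Other genes of this set had an effect that fell. Dnase1, a secreted nuclease of the tubule, lay at 14.06, 12.69, 13.51 and 12.90 in Nx kidneys at day 2 and 10.38, 11.79, 11.67 and 12.86 at day 28, against 13.90 to 14.28 and 14.08 to 14.46 in sham kidneys. Nx arrays of day 28 were under every sham array, mouse 3 lowest, and the change was -1.83 (SE 0.43, adjusted p = 0.00403). Gpm6a, a membrane glycoprotein, changed by -0.58 (SE 0.13, adjusted p = 0.00356), and Lrp8, a receptor of reelin, by -1.09 (SE 0.27, adjusted p = 0.00713). Lonrf3 changed by -0.87 (SE 0.24, adjusted p = 0.015). Galr2, a galanin receptor, is a gene where the sham kidneys moved: all 8 Nx arrays lay at 2.20, and sham arrays at 2.34, 2.20, 2.20 and 2.44 at day 2 and 3.17, 3.16, 4.28 and 2.56 at day 28. Its change (adjusted p = 0.00863), from an effect of -0.10 to -1.09, holds no measured movement of Nx kidneys, which were at the lowest value throughout.

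For intercalated cells, which secrete acid in the collecting duct, the median effect with all arrays did not move towards the sham level. Of 16 marker genes 12 were lower at day 2 (background 24.4%) and 13 at day 28 (background 9.14%), with medians of -0.74 and -0.76. The change passed in 1, a share near the background of 8.86%. This was Car2, a carbonic anhydrase (-0.42, SE 0.10, adjusted p = 0.00591), which was higher than sham at day 2 (0.34). The list mean lay at 7.81 to 8.22 and 7.70 to 8.30 in Nx kidneys and at 8.53 to 8.76 and 8.65 to 8.95 in sham kidneys, without overlap at either day. Rhcg, an ammonia transporter, lay at 7.30, 7.19, 7.39 and 6.68 and 6.68, 7.25, 7.35 and 7.52 in Nx kidneys and at 8.47, 8.56, 8.61 and 8.70 and 8.67, 8.23, 8.89 and 8.47 in sham kidneys. The Nx arrays of the 2 days overlapped, and the change was 0.08 (SE 0.27, adjusted p = 0.938). Slc4a9, a bicarbonate carrier of these cells, had effects of -1.23 and -1.48 (SE 0.27, adjusted p = 9.99e-05). Without mouse 3 the day 28 effect of Rhcg was -1.19 and 10 of 16 members were lower (728 of all 13174 genes), with a list median of -0.62. Transcription factors of the nephron were lower in 13 of 17 at day 2 (background 24.4%) and 11 at day 28 (background 9.14%), with medians of -0.56 and -0.58. The effect rose in 1, near the background of 4.84%: Maf by 0.99 (SE 0.17, adjusted p = 0.000129), although its probe sets ranged from -0.05 to 1.22. Esrrb, an orphan nuclear receptor, had effects of -1.27 and -1.23. In principal cells, which carry the water channels, 8 of 16 genes were lower at day 2 (background 24.4%) and 6 at day 28 (background 9.14%). There Tfcp2l1, a transcription factor of the collecting duct, was higher at day 2 and fell by 0.79 (SE 0.11, adjusted p = 2.29e-06). The change passed in 0 of 12 thick ascending limb and 0 of 13 distal convoluted tubule genes, against 8.86% of all genes. At an unadjusted p under 0.05 in limma these counts were 1 and 3, against 2822 of all 13174 genes.

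Energy metabolism was covered by 4 of the lists. Of 33 respiratory chain genes 22 were lower at day 2 (background 24.4%) and 8 at day 28 (background 9.14%), with medians of -0.17 and -0.11. Without Nx day 28 mouse 3, 1 was lower at day 28, against 728 of all 13174 genes. The effect rose in 1 (7 at an unadjusted p under 0.05), near the background of 4.84%. This count was 6 without Nx day 28 mouse 3, where 786 of all 13174 genes rose. It was 4 without Nx day 2 mouse 9 or without sham day 28 mouse 5. It was 0 without any 1 of 8 arrays (Nx day 2 mouse 11, Nx day 28 mouse 5 or 9, sham day 2 mouse 1, 2 or 5, sham day 28 mouse 3 or 6). Of 24 genes of fatty acid oxidation and the peroxisome, it rose in 4 (background 4.84%) and fell in 2 (background 4.02%). Hao2, a peroxisomal hydroxyacid oxidase, lay at 13.13, 13.32, 13.23 and 12.60 and 14.10, 14.20, 14.49 and 14.39 in Nx kidneys against 14.76 to 15.11 in sham kidneys at day 28, a change of 1.17 (SE 0.15, adjusted p = 5.44e-07), and Hadh and Acads, of beta oxidation, changed by 0.34 (SE 0.09) and 0.70 (SE 0.17). Acox2, of bile acid and branched fatty acid oxidation, kept effects of -0.80 and -1.13. Among 11 gluconeogenesis genes the effect rose in 2 (background 4.84%), fell in 1 (background 4.02%) and did not pass in 8. Fbp1, fructose bisphosphatase, rose by 0.47 (SE 0.10) and Pcx, pyruvate carboxylase, by 0.59 (SE 0.16), while Gpt, alanine aminotransferase, went the other way by -1.29 (SE 0.38, adjusted p = 0.0266). The call of Pcx was lost without any 1 of 3 arrays (Nx day 2 mouse 11, Nx day 28 mouse 9, sham day 28 mouse 3), and that of Gpt without Nx day 28 mouse 3 or 5 or sham day 28 mouse 6. Angpt1, the ligand of the endothelial receptor Tie2, rose by 1.47 (SE 0.23, adjusted p = 3.28e-05), with Nx values of 6.21, 6.03, 6.34 and 5.88 at day 2 and 7.49, 7.72, 7.70 and 7.12 at day 28, the latter overlapping the sham range of 7.13 to 7.71. The change passed in 0 of 13 glycolysis genes, 0 of 20 genes of the unfolded protein and amino acid response, 0 of 13 antigen presentation genes, 0 of 10 lymphocyte genes and 0 of 17 interferon genes. At an unadjusted p under 0.05 in limma these counts were 2, 2, 0, 1 and 0, against 2822 of all 13174 genes. Over all genes the change passed in 8.86%.

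The adipose and pancreas lists were drawn up as markers of other tissues, and whether kidney cells express single members was not tested. Of 8 adipose genes the effect rose in 6 (background 4.84%) and fell in 0 (8 and 0 at an unadjusted p under 0.05), with medians of -1.62 and 2.32. The list mean ran from 5.23 to 7.76 in Nx and 7.70 to 9.31 in sham kidneys at day 2, and from 7.07 to 9.34 in Nx and 5.06 to 7.83 in sham kidneys at day 28, so the groups changed places with overlap at both days. Ucp1, the uncoupling protein of brown fat, had the largest change of all genes named here: it lay at 2.33, 2.41, 2.41 and 5.73 in Nx and 9.09, 9.80, 7.90 and 6.82 in sham kidneys at day 2, and 9.17, 9.12, 6.03 and 6.95 in Nx and 2.41, 2.66, 8.97 and 7.27 in sham kidneys at day 28. Its change was 7.67 (SE 2.10, adjusted p = 0.015). Thrsp, a regulator of fat synthesis, changed by 5.59 (SE 1.73, adjusted p = 0.034) and Adipoq, the adipokine adiponectin, by 5.77 (SE 1.71, adjusted p = 0.0264); leaving out 1 array in turn ended the first call in 8 of 16 cases and the second in 6. How much fat each sample carried was not tested. For the 17 pancreatic enzyme genes the median effect was 6.80 at day 2 and 6.58 at day 28, and the change passed in 0 (0 also at an unadjusted p under 0.05 in limma).

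**Figure D5:**
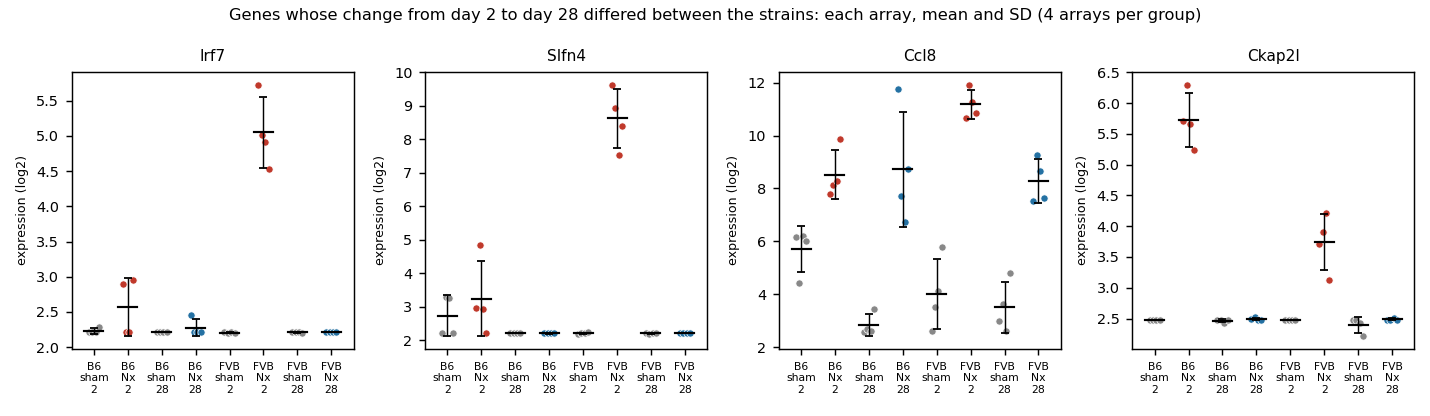
Expression (log2) of 4 genes on each array of both strains at day 2 and day 28, with the group mean and SD (4 arrays per group). Irf7 and Slfn4 are highest in FVB Nx kidneys at day 2, Ccl8 falls between the days in FVB Nx kidneys, and Ckap2l is higher in B6 than in FVB Nx kidneys at day 2.

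The same change was measured in FVB mice, where it passed for 3324 genes (25.2%; 1680 rose, 1644 fell). The difference between the strains, FVB change minus B6 change, passed for 83 genes (0.63%), 18 higher in FVB (0.137%) and 65 lower (0.493%). More type I interferon genes passed than members of any other list: 9 of 17, all lower in FVB, with a median difference of -2.05 against -0.01 over all genes. In B6 their effects were 0.47 and 0.43, and their change passed in 0. Irf7, the interferon regulatory factor 7, lay at 2.89, 2.21, 2.21 and 2.95 in B6 and 5.73, 5.02, 4.92 and 4.53 in FVB Nx kidneys at day 2, and at 2.21 to 2.46 and 2.21 at day 28. The 4 FVB Nx arrays of day 2 were above all B6 arrays, and the strains differed in the change by -2.58 (SE 0.30, adjusted p = 6.53e-07). Slfn4, an interferon-induced gene of myeloid cells, differed by -5.90 (SE 0.62, adjusted p = 1.45e-07), and Ccr9, a chemokine receptor, by -3.12 (SE 0.35, adjusted p = 3.26e-07). Ifit1, an interferon-induced RNA-binding protein, differed by -3.88 (SE 0.77, adjusted p = 0.00596) and was higher than sham in B6 kidneys at day 28 (1.37, SE 0.39, adjusted p = 0.00981), a call lost without Nx day 28 mouse 3. Cilp and Ccl8, whose effect of surgery rose in B6 with lower sham values at day 28, differed by -5.75 (SE 1.29, adjusted p = 0.0186) and -5.51 (SE 1.35, adjusted p = 0.0416). Their FVB changes were -2.19 and -2.41.

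In the other direction, Ckap2l, a protein of the mitotic spindle, lay at 5.71, 6.30, 5.66 and 5.23 in B6 and 3.71, 3.90, 4.22 and 3.13 in FVB Nx kidneys at day 2, without overlap, and was at 2.48 to 2.52 in B6 Nx kidneys at day 28. Its B6 change was -3.22 (SE 0.19, adjusted p = 9.52e-16), its FVB change -1.18 (SE 0.19, adjusted p = 9.7e-06), and the difference 2.04 (SE 0.26, adjusted p = 4.78e-06). Prr11, which acts in the cell cycle, and Mpp6, a scaffold protein, differed by 0.50 (SE 0.08, adjusted p = 0.000198) and 0.69 (SE 0.14, adjusted p = 0.00567), with B6 Nx values at day 2 of 2.70 to 2.93 and 10.49 to 10.70 against 2.32 and 9.74 to 10.10 in FVB. Of the 27 mitosis genes 1 passed the test of the difference (background 0.63%). Of the 15 collagens, 28 macrophage genes and 28 proximal tubule transport genes 0 did. At an unadjusted p under 0.05 in limma these 3 lists had 3, 8 and 7, against 1573 of all 13174 genes. The FVB and B6 median changes were -1.76 and -1.86 for mitosis, -1.15 and -0.31 for collagens, -1.42 and -0.17 for macrophages, and 1.00 and 0.63 for proximal tubule transport. Without Nx day 28 mouse 3 the B6 medians of these lists were -2.23, -0.68, -0.66 and 0.73.

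From day 28 to day 53 the B6 effect changed in 0 genes in limma (405 at an unadjusted p under 0.05), a comparison that shares the day 28 arrays with the one above, and 1938 genes (14.7%) differed between Nx and sham kidneys at day 53. The median effects at day 53 were 0.60 for mitosis, 1.31 for collagens, 2.06 for macrophages, -0.22 for proximal tubule transport and -0.85 for intercalated cells. Gpnmb, Ccl8, Cilp and Rhcg were still apart from sham at day 53, with adjusted p of 2.06e-08, 7.19e-08, 2.74e-07 and 8.43e-06 in limma and effects of 5.11, 5.89, 5.23 and -1.26. Plk1 and Slc34a1 had effects of 0.15 and -0.05, which did not pass (adjusted p = 0.723 and 0.928).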

How the data were processed

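Whole-kidney total RNA was hybridised to Affymetrix arrays, and the submitters' processing notes name MAS5. The deposited table holds 45101 probe sets on 48 arrays, and its values were taken as log2 from their range; the authors' further normalization is not given in the sources used here. The lowest value, 2.20, fills 32.1% of cells, so a fall to it is a bound. Values were used as deposited. Probe sets above the 40th percentile (2.28) in at least 4 arrays were kept, and of those with 1 gene symbol in the platform annotation the one with the highest mean stood for the gene (13174 genes). Limma 3.58.1 (R 4.3.3) fitted 12 group means to all 48 arrays with an intensity trend, and p-values were adjusted by Benjamini-Hochberg at 0.05. Arrays carry no read depth, and 4 per group limit the precision.

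A fold of at least N is the Nx mean over the filter value where all 4 sham arrays lie at or under it. The rule for named genes took the 10 highest and 10 lowest changes past the threshold whose Nx arrays of day 2 and day 28 do not overlap, up to 5 each way whose effect was larger at day 28 without overlap there, for each list up to 3 genes by lowest p in the change, up to 2 with the largest called effect at day 28, and up to 3 each way with the smallest p in the strain difference. Provisional gene models were skipped. Lrp2, Cubn, Slc6a19, Slc13a1 and Ccl5 fall outside it and were chosen after their values were seen. Members and gene lists were chosen with earlier results of these data known. Alternatives covered scaling, filters, probe-set means, array weights, a replicate block and leaving out arrays. Promoters are from RefSeq.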

Additional observations from a re-analysis of the deposited data

Results flagged for a closer look

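In 168 groups of 4 list means, 19 had 1 array farther from the others than Dixon's 95% limit, where chance gives about 5%. In Nx kidneys at day 28 the highest array had list means of 10.29 for matrix glycoproteins, 8.7 for matrix proteases, 9.94 for macrophages, 9.24 for alternative macrophage activation, 6.5 for cytokines and 10.14 for antigen presentation, and the lowest had 11.46 for fatty acid oxidation. The pancreatic enzyme list had an array at 2.99 in the same group, and one at 7.17 in sham kidneys at day 28. In sham kidneys at day 28 the highest array stood apart for cytokines (4.54), neutrophils (3.51), distal convoluted tubule (10.42), the renin angiotensin system (9.54) and adrenal genes (3.92). In sham kidneys at day 2 the highest array stood apart for macrophages (6.78), the respiratory chain (13.55), podocytes (8.25) and adrenal genes (6.91), and the lowest for the thick ascending limb (8.84).

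The change differed between the strains, by the test of FVB minus B6 in limma, for Ckap2l (2.04), Prr11 (0.50), Mpp6 (0.69), Slfn4 (-5.90), Ccr9 (-3.12) and Irf7 (-2.58).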

How the results depend on the processing

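Of 3892 values of named genes under the alternatives, 3617 kept their direction and side of the threshold, 273 lost the call and 2 reversed: Il1rn (0.21) and Tgfb3 (0.33), without the arrays with pancreas transcripts. That alternative left such arrays out of the 4 B6 groups of day 2 and day 28 only. FVB and B6 day 53 arrays with pancreas transcripts stayed in. Its strain difference and its day 28 to day 53 comparison therefore set B6 groups without these arrays against groups that still held them. The alternative keeps 1 Nx array per day in the 4 groups and assumes that this array varies like the other groups. It gave 444 changed genes, 3542 at day 2, 806 between the Nx groups, 1225 for the strain difference and 560 from day 28 to day 53. Array weights gave 2521 changed genes, 156 for the strain difference and 164 between the sham groups, and a fit of only the 16 arrays gave 794 changed genes and 12 between the sham groups. Leaving out 1 array in turn gave 859 to 1663 changed genes, and 1663 came without Nx day 28 mouse 3, where day 28 gave its lowest count of 1537; its highest was 2615, without Nx day 28 mouse 9. The strain difference ranged from 59 to 131 (highest without Nx day 2 mouse 11) and the sham comparison from 16 to 51. Only the 16 B6 arrays were left out in turn, so the range of the strain difference does not cover single FVB arrays. The cause of these shifts was not tested.

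With the replicate block 1284 genes changed, 5988 differed at day 2, 2803 at day 28, 3604 between the Nx groups, 38 between the sham groups, 108 between the strains and 0 from day 28 to day 53. The mouse numbers were not taken as pairs, since same-numbered arrays correlated at 0.281 at day 2 (1 pair) and -0.057 to 0.168 at day 28 (2 pairs).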
